A study of Homo sapiens with 3 samples.

Results

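The nuclear-encoded genes of the mitochondrial respiratory chain were examined in HCT-116 cells, a human colon carcinoma line, with and without siRNA against *APC*. Members were taken by gene symbol alone: the NDUFA, NDUFB, NDUFC, NDUFS and NDUFV families of complex I, *SDHA* to *SDHD* of complex II, UQCR genes of complex III, COX4 to COX8 genes of complex IV, and genes under the older ATP5 symbols of complex V. This gave 89 of the 23131 genes in the authors' table. HCT-116 cells carry wild-type APC and a β-catenin that lacks serine 45, and both features were common to all libraries. Cells below passage 20 went through 2 transfections on consecutive days and were harvested 48 hours after the second. One library each was made from cells given a pool of anti-*APC* siRNA, cells given a pool of scrambled siRNA, and control cells that are titled untransfected but described as having received the transfection reagent without siRNA. The library given scrambled siRNA is not analysed here. Every ratio is therefore anti-*APC* siRNA over untransfected, and effects of siRNA delivery cannot be told apart from those of *APC* silencing. With 1 library per condition there is no replicate check and no test of a difference. Levels are FPKM, fragments per kilobase of transcript adjusted for the reads of the library, which allows genes of different length to be compared.

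The respiratory chain passes electrons from NADH (complex I) or succinate (complex II) through ubiquinone, complex III and cytochrome c to oxygen (complex IV). Complexes I, III and IV pump protons across the inner mitochondrial membrane as they do so, and complex V, the ATP synthase, uses the return flow of protons to make ATP. Complex II is built entirely from nuclear genes, while each of the other complexes also needs subunits encoded by mitochondrial DNA, for which the table has no row. The nuclear subunit genes are expressed in nearly every cell type, and a few have tissue-restricted isoforms.

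*APC*, the targeted gene (GRCh37, chromosome 5, bases 112043215 to 112181936), had 9.15 FPKM in the untransfected library and 3.43 FPKM in the anti-*APC* library, which left 0.375 of its level. Of 10 colon epithelial markers, 6 were above 1 FPKM in both libraries, whereas *CDX1*, *CEACAM5*, *VIL1* and *KRT20* were below 1 FPKM. The summed level of the 10 was 1650 FPKM untransfected and 1295 FPKM with anti-*APC* siRNA, with *EPCAM* at 190 and 170 FPKM, *KRT8* at 588 and 478 FPKM, *KRT18* at 461 and 337 FPKM, *KRT19* at 384 and 289 FPKM and *CDH1* at 19.02 and 12.1 FPKM. The part of this difference in the results was not tested. Of 10 markers of blood, endothelial, connective tissue, muscle, liver, pancreatic and glial cells, 8 were below 1 FPKM in both libraries and the other two, *COL1A1* and *ACTA2*, did not exceed 3.08 FPKM. The steps between the lowest FPKM values are those of single reads, and with annotated transcript lengths they correspond to about 27600000 reads in untransfected cells and 25200000 reads with anti-*APC* siRNA. The read numbers and 95% counting intervals given below derive from these depths. They are approximate because the isoform lengths the authors used are not listed, and they cover counting error only, not the variation between cultures.

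The respiratory chain transcripts were nearly level between the libraries, with a small excess of lower values after anti-*APC* siRNA. Of the 89 genes, 81 passed the filter of a mean of at least 1 FPKM and a value above 0 in both libraries, and their median log2 ratio was -0.08, beside -0.05 over the 12063 genes of the table that passed the same filter. One member, the complex I subunit gene *NDUFA7*, differed by at least 1.5-fold, whereas 9.17% of all genes that passed did so (2.56% higher and 6.61% lower). At a limit of 1.2-fold, 11 of the 81 members differed, 2 higher and 9 lower, beside 32.9% of all genes (9.87% higher and 23% lower). Rescaling both libraries to the same total FPKM, which shifts every log2 ratio by -0.06, made this 0 higher and 13 lower. With small RNA genes left out of the total, the shift was -0.009 and the count stayed at 2 higher and 9 lower. The level was lower in 58 members and higher in 23, so 71.6% were lower beside 58.6% of all genes, of which 41.4% were higher. This split depended on scaling: 45 members were lower and 36 higher when the median ratio of all genes was subtracted. After rescaling to the same total FPKM, 71 were lower and 10 higher, or 61 and 20 with small RNA genes left out of the total. The share of all genes that were lower also moved, to 50.0%, 68.4% and 60.2% under these settings in turn. The 95% counting interval excluded 0 in 40 of the 80 members that had one, 33 on the lower side, beside 57.2% of all genes.

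The members also had a narrow range of ratios. Their middle 50% spanned 0.16 on the log2 scale, against 0.35 for all genes that passed. Abundance differs between these sets, since the median level in untransfected cells was 99.0 FPKM for the members and 13.8 FPKM for all genes. Among genes with a mean of at least 10 FPKM the spans were 0.16 for the 78 members and 0.28 for all 7118 genes. Their median untransfected levels still differed, at 105 and 28.6 FPKM, so abundance was not matched. Of these 7118 genes 135 were higher and 227 lower by 1.5-fold. Genes of one pathway are not replicates, so this is a description of these 2 libraries.

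**Figure D1:**
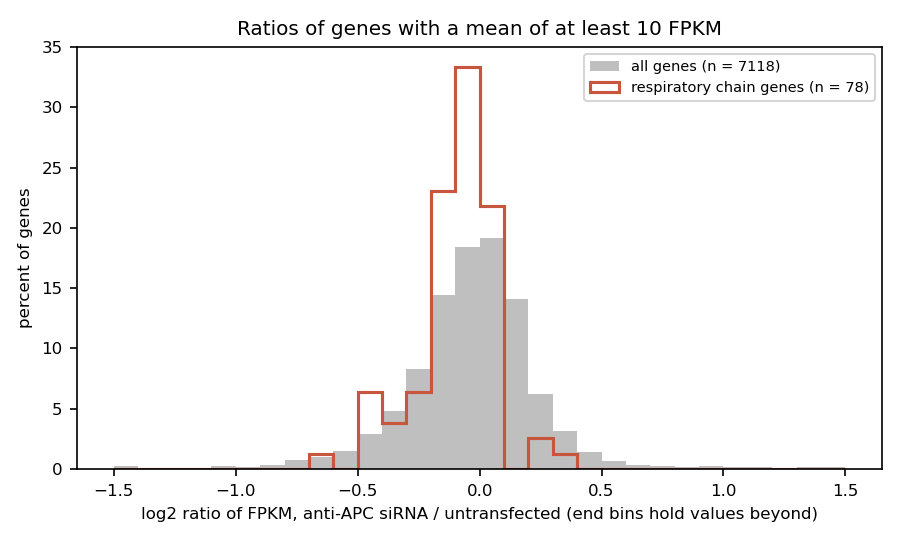
Log2 ratio of FPKM (x axis, anti-*APC* siRNA over untransfected, in steps of 0.1) against the percent of genes (y axis) for all 7118 genes with a mean of at least 10 FPKM (grey) and the 78 respiratory chain genes above that level (red line). The respiratory chain genes are gathered just below 0 and lie between -0.62 and 0.30.

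In complex I, the NADH dehydrogenase, 36 of 38 genes passed, with levels in untransfected cells from 13.1 FPKM (*NDUFC2*) to 381 FPKM (*NDUFB9*), a 29.0-fold range. The most abundant were *NDUFB9* (381 FPKM untransfected and 359 FPKM with anti-*APC* siRNA), *NDUFS5* (355 and 359 FPKM) and *NDUFA1* (186 FPKM in both), all accessory subunits of the membrane arm. Their log2 ratios lay between -0.08 and 0.02. The median log2 ratio of complex I was -0.07, with 24 genes lower and 12 higher. The 7 core subunits, which carry the flavin and iron-sulfur centres and the ubiquinone site, had levels from 38.5 to 104 FPKM and a median log2 ratio of -0.11. The 29 accessory subunits that passed, with *NDUFA4* counted among them by its symbol, had a median of -0.05.

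*NDUFA7*, an accessory subunit of the matrix arm near the NADH-oxidising module, lies on the minus strand of chromosome 19 of GRCh37 from 8373652 to 8386259 and was alone at its locus in the table. It had 45.8 FPKM in untransfected cells and 29.7 FPKM with anti-*APC* siRNA, 35.1% lower. The log2 ratio was -0.62, with a counting interval of -0.84 to -0.41 from about 481 and 285 reads. Its difference from 0 was therefore larger than counting error, but whether it exceeds the variation between cultures cannot be known from these libraries. It was no longer past 1.5-fold once the median of all genes was subtracted, or a trend on transcript length or GC content. *NDUFB7*, an accessory subunit of the membrane arm, followed with 67.1 and 48.1 FPKM, a log2 ratio of -0.48. *NDUFV3*, part of the NADH-oxidising module, had 22.3 and 17.3 FPKM (log2 ratio -0.37). *NDUFA3*, in the membrane arm, had 98.0 and 78.0 FPKM (log2 ratio -0.33). These 4 genes are the complex I members past 1.2-fold on the lower side, and their subunits sit in both arms of the complex. The 10 genes counted in the NADH-oxidising module had a median log2 ratio of -0.09. It was -0.11 for the 5 counted in the ubiquinone-reducing module and -0.05 for the 20 counted in the membrane arm that passed. *NDUFA9* (log2 ratio 0.07) was counted with the membrane arm, but its product lies in the matrix arm at the ubiquinone-reducing module. These medians are therefore not ranked.

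The highest complex I ratios were those of *NDUFS3* and *NDUFC1*. *NDUFS3*, a core subunit next to the ubiquinone site, had 77.0 FPKM untransfected and 94.9 FPKM with anti-*APC* siRNA, a log2 ratio of 0.30 (counting interval 0.16 to 0.44). Cuffdiff placed *NDUFS3* (chromosome 11 of GRCh37, plus strand) at one locus with *PTPMT1* and with *KBTBD4*, which lies on the opposite strand. The GENCODE gene span of *NDUFS3*, 47586888 to 47606114, takes in all of *PTPMT1* (47586982 to 47595013) and of *KBTBD4* (47593749 to 47600528). A gene span covers every annotated transcript, so it does not show that *NDUFS3* transcripts in these cells overlap *KBTBD4*. Where those transcripts begin was not tested. *KBTBD4* had 20.0 FPKM untransfected and 7.69 FPKM with anti-*APC* siRNA, a log2 ratio of -1.38. *PTPMT1* had 19.5 and 21.3 FPKM, a log2 ratio of 0.13. FPKM is a level per length, so these values do not show how reads were shared. The division of reads between the genes of this locus was not tested. *NDUFC1*, a small membrane-arm subunit on chromosome 4, had 119 and 147 FPKM, a log2 ratio of 0.30 (counting interval 0.21 to 0.38). It shares a locus with *NAA15*, on the opposite strand, which had 75.8 and 82.8 FPKM. *NDUFC2*, the least abundant complex I member with a value, had 13.1 and 12.6 FPKM, but its read-through transcript *NDUFC2-KCTD14* had 25.3 and 22.2 FPKM at the same locus. The level of *NDUFC2* thus depends on how reads were divided. In all, 18 of the 89 members share a locus with another row. Among the 65 members that passed and were alone, 9 differed by 1.2-fold, all of them lower, so both members higher by 1.2-fold, *NDUFS3* and *NDUFC1*, are at shared loci.

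*NDUFA4* carries a complex I name, and is counted there, but its product is known as a subunit of complex IV. It had 25.3 FPKM untransfected and 26.2 FPKM with anti-*APC* siRNA (log2 ratio 0.05). Its isoform gene *NDUFA4L2*, known for induction by hypoxia, and the X-linked membrane-arm gene *NDUFB11* are listed at 0 in both libraries with the status FAIL, as are 269 genes in all. This status marks an estimate that Cuffdiff could not make, so these zeros say nothing of expression. *NDUFA4L2* shares its locus with *SHMT2*, which failed too.

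**Figure D2:**
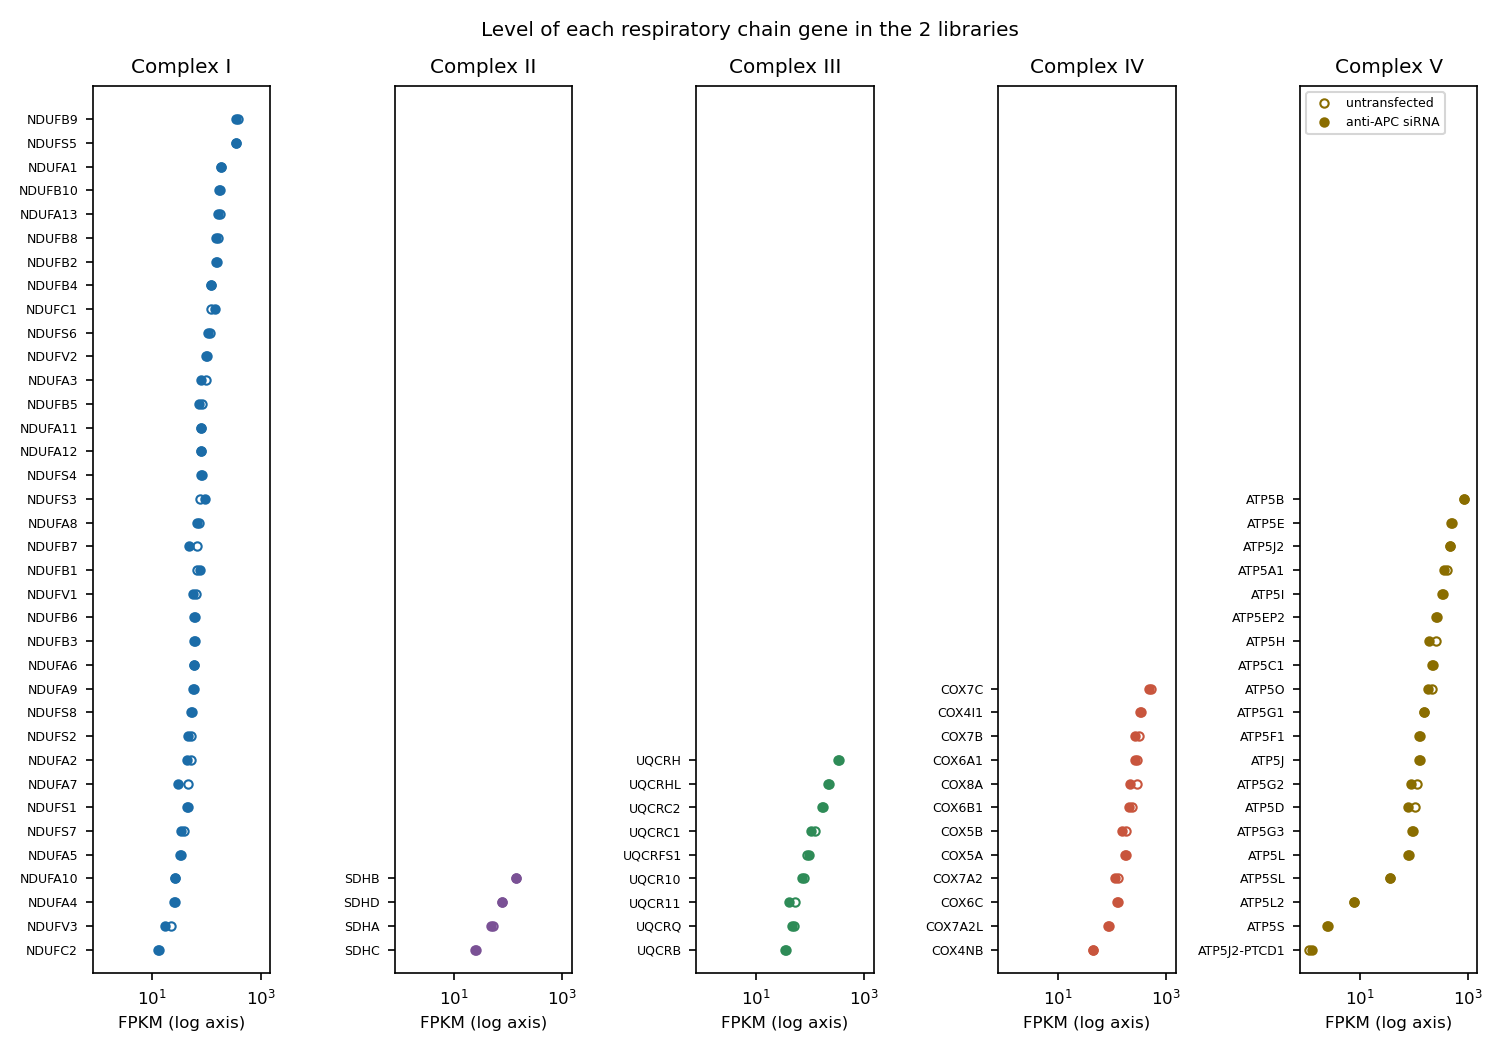
FPKM on a log axis for each respiratory chain gene that passed the filter, ordered within complexes I to V by the untransfected level, with open circles for the untransfected library and filled circles for the anti-*APC* library. In most genes the circles coincide, and visible gaps mark genes such as *NDUFA7* (45.8 to 29.7 FPKM) and *COX8A* (289 to 216 FPKM).

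Complex II, succinate dehydrogenase, links the citrate cycle to the chain and has 4 subunits, all measured. *SDHB*, the iron-sulfur subunit, had 141 FPKM untransfected and 138 FPKM with anti-*APC* siRNA. *SDHA*, the flavoprotein that oxidises succinate, had 52.7 and 48.2 FPKM. The membrane anchors had 25.3 and 24.6 FPKM (*SDHC*) and 78.4 and 75.3 FPKM (*SDHD*). Their levels in untransfected cells differed 5.56-fold, although the complex holds the subunits in equal number. All 4 log2 ratios were below 0, from -0.13 (*SDHA*) to -0.03 (*SDHB*), and the counting interval excluded 0 for *SDHA* alone (-0.21 to -0.05). No member of this complex differed by 1.2-fold.

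In complex III, the cytochrome bc1 complex, all 9 genes passed, with a median log2 ratio of -0.10 and 7 of 9 lower. *UQCRH*, the hinge protein that contacts cytochrome c1, was the most abundant with 349 FPKM untransfected and 325 FPKM with anti-*APC* siRNA. *UQCRC2*, a core protein, had 171 and 167 FPKM, and *UQCRC1*, the other core protein, had 123 and 105 FPKM (log2 ratio -0.23). The lowest ratio was that of *UQCR11*, a small subunit encoded on chromosome 19, with 51.9 and 40.9 FPKM and a log2 ratio of -0.34 (counting interval -0.50 to -0.19). The highest were those of *UQCRB*, which takes part in ubiquinone binding, with 34.4 and 36.5 FPKM (log2 ratio 0.09), and of *UQCRFS1*, the Rieske iron-sulfur protein, with 89.6 and 94.7 FPKM (0.08).

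Some members have a copy with a near-identical coding sequence, and the levels of such a pair may not be separate. *UQCRHL* is an intronless copy of *UQCRH*, and *ATP5EP2* is a processed pseudogene of *ATP5E*, the epsilon subunit gene of complex V. Only the coding sequences were compared, and untranslated sequence could differ more. The coding sequence of *UQCRH* and the copy at chr1:16133869-16134144 of GRCh37 (minus strand) are printed 5′ to 3′ from GENCODE. Letters are in lower case with the bases that differ in capitals. They show how few positions within this stretch can tell a read of one from a read of the other:
UQCRH: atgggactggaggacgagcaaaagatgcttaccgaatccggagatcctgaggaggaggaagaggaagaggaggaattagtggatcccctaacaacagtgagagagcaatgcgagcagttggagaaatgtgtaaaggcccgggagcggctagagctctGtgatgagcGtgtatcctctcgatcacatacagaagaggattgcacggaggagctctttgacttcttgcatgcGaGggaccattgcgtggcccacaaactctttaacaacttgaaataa
UQCRHL: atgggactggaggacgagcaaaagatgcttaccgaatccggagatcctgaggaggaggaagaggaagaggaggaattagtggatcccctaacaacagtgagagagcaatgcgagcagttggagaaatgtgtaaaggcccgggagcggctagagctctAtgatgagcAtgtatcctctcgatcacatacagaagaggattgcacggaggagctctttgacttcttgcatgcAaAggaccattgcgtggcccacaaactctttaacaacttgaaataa
They differ at 4 of 276 bases (98.6% identity), and the longest identical stretch is 157 bases. The table gives *UQCRHL* 225 FPKM untransfected and 211 FPKM with anti-*APC* siRNA, a log2 ratio of -0.10 that lies within 0.0036 of that of *UQCRH*. The coding sequence of *ATP5E* and the pseudogene at chr13:28519397-28519552 (plus strand) are shown in the same way:
ATP5E: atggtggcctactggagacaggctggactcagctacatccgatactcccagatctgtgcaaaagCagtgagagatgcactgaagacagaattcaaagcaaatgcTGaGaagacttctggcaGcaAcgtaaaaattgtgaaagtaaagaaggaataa
ATP5EP2: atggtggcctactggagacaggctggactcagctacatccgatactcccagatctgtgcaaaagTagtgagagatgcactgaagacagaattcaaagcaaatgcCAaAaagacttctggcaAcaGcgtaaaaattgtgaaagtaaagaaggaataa
They differ at 6 of 156 bases (96.2% identity), with a longest identical stretch of 64 bases. *ATP5EP2* is listed at 255 FPKM untransfected and 266 FPKM with anti-*APC* siRNA (log2 ratio 0.06), and *ATP5E* at 497 and 513 FPKM (log2 ratio 0.05). In each pair the copy is listed at over 50% of its parent's level with almost the same ratio. The authors' treatment of reads that match several places is not stated in the sources used here, so the level of a copy is not evidence that the copy was transcribed, and the parent's own level is uncertain by the same amount. *ATP5L2*, a copy of *ATP5L*, had 7.81 and 7.96 FPKM, against 82.4 and 80.1 FPKM for *ATP5L*.

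In complex IV, cytochrome c oxidase, 12 of 18 genes passed, with a median log2 ratio of -0.11 and 10 of 12 lower. The summed FPKM of its genes was 2750 in untransfected cells and 2482 with anti-*APC* siRNA, a log2 ratio of -0.15. The corresponding sums gave -0.04 for complex I, -0.05 for complex II, -0.10 for complex III and -0.07 for complex V, so complex IV was lowest on both measures, though the gaps between complexes were small beside the spread of genes within each. *COX7C*, one of the small subunits, was the most abundant with 521 and 491 FPKM. *COX4I1*, the largest nuclear-encoded subunit, had 351 and 326 FPKM, and *COX7B* had 313 and 266 FPKM (log2 ratio -0.24). The lowest ratio was that of *COX8A*, the smallest subunit, with 289 FPKM untransfected and 216 FPKM with anti-*APC* siRNA, a log2 ratio of -0.42 (counting interval -0.51 to -0.33). The highest was that of *COX7A2L*, whose product joins complexes III and IV into supercomplexes, with 83.1 and 88.5 FPKM (0.09). *COX4NB*, which the symbol rule also takes in, is a neighbour of *COX4I1* and encodes no oxidase subunit. It had 44.7 and 44.3 FPKM.

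The isoform pairs of complex IV were expressed in their widespread form. *COX4I1* was at 351 FPKM in untransfected cells, whereas *COX4I2*, the isoform known from lung, was listed at 0 there and at 0.083 FPKM with anti-*APC* siRNA. *COX6A1* had 296 and 272 FPKM, and *COX6A2*, the heart and muscle form, was at 0 in both libraries. *COX6B1* had 240 and 205 FPKM, and the testis form *COX6B2* had 0.422 and 0.761 FPKM. *COX7A2* had 129 and 113 FPKM, and the muscle form *COX7A1* had 0.065 and 0.213 FPKM. *COX7B2* and *COX8C*, other testis forms, were at 0 in both libraries. At these depths a value such as that of *COX4I2* or *COX7A1* rests on a few reads at most, so no difference between the libraries can be read from it. None of the 7 tissue-restricted isoforms passed the filter. They include *NDUFA4L2*, whose failed estimate says nothing of its expression.

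**Figure D3:**
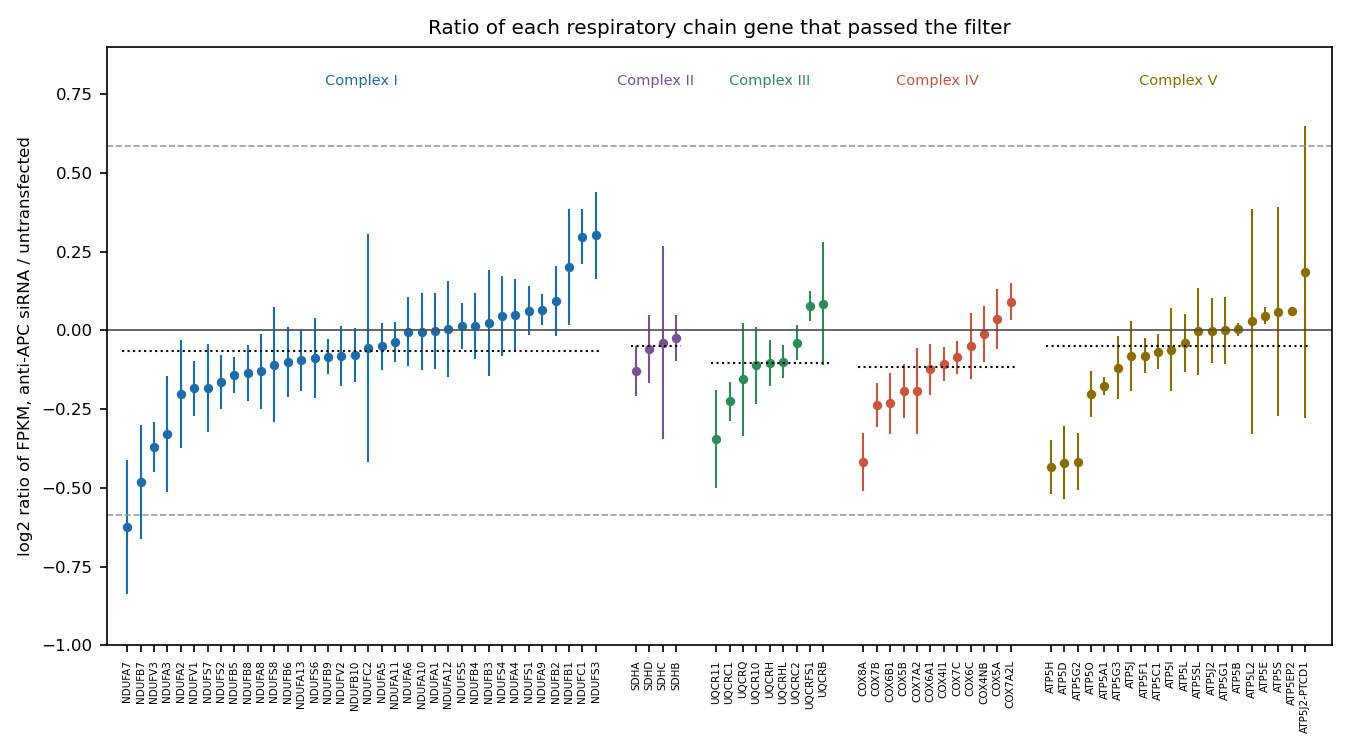
Log2 ratio of FPKM (y axis, anti-*APC* siRNA over untransfected) for the 81 respiratory chain genes that passed the filter, ordered by ratio within each complex. Vertical lines are approximate 95% counting intervals (none for *ATP5EP2*), and dashed lines mark 1.5-fold, which *NDUFA7* alone passes. Dotted lines are the medians of the complexes (-0.07, -0.05, -0.10, -0.11 and -0.05 for I to V). These medians include the rows that are not subunit genes.

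In complex V, the ATP synthase, all 20 genes passed, with a median log2 ratio of -0.05, 13 lower and 7 higher. These include rows that are not subunit genes, named below. The 15 subunit genes alone had a median of -0.08, with 12 lower and 3 higher. *ATP5B*, the beta subunit of the catalytic F1 head, had 834 FPKM untransfected and 836 FPKM with anti-*APC* siRNA, the highest level of any member. *ATP5E* followed with 497 and 513 FPKM and *ATP5J2*, a membrane subunit, with 463 FPKM in both libraries. *ATP5A1*, the alpha subunit, which alternates with beta in the head in equal number, had 414 and 367 FPKM (log2 ratio -0.18), so the alpha transcript was below the beta transcript in both libraries. *ATP5C1*, the gamma subunit of the central stalk, had 225 and 215 FPKM. *ATP5D*, the delta subunit of the same stalk, had 105 and 78.7 FPKM and a log2 ratio of -0.42.

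The lowest ratio of complex V was that of *ATP5H*, subunit d of the peripheral stalk that holds the head still, with 254 FPKM untransfected and 188 FPKM with anti-*APC* siRNA. Its log2 ratio was -0.43 (counting interval -0.52 to -0.35). All 4 peripheral stalk genes were lower, with log2 ratios from -0.43 to -0.08, and their summed FPKM was 734 and 626. The proton-carrying c ring is encoded by 3 genes that make the same mature protein. *ATP5G1* had 158 FPKM in both libraries, *ATP5G3* had 99.0 and 91.2 FPKM, and *ATP5G2* had 117 and 87.6 FPKM, a log2 ratio of -0.42. The sum of these genes was 374 and 337 FPKM, a log2 ratio of -0.15, so most of the difference in this subunit came from *ATP5G2*. The highest ratio under an ATP5 symbol was that of the read-through transcript *ATP5J2-PTCD1*, with 1.16 and 1.32 FPKM (0.18), whose counting interval of -0.28 to 0.65 includes 0. *ATP5S* and *ATP5SL*, which encode no ATP synthase subunit proper, had 2.49 and 2.59 FPKM and 36.2 and 36.1 FPKM. When the 7 rows that are not subunit genes were left out (*UQCRHL*, *COX4NB*, *ATP5EP2*, *ATP5L2*, *ATP5J2-PTCD1*, *ATP5S* and *ATP5SL*), 74 genes remained with a median log2 ratio of -0.08.

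Promoter sequence was examined as a feature that the symbol rule did not use. Nuclear respiratory factor 1 (NRF1), the ETS protein GABPA and YY1 are transcription factors known for binding near the starts of respiratory chain genes. RefSeq promoters (250 bases before to 50 after the gene start, GRCh38.p14) were found for 61 of the 74 subunit genes that passed. Examples are printed 5′ to 3′, with matches on either strand to GCATGCG (NRF1), CCGGAAG (ETS) and AAGATGG (YY1) in capitals. The last 3 letters of the ETS motif are the first 3 of the YY1 motif, so matches can overlap. *COX5B* and *SDHB* are shown as promoters with several of the motifs and *NDUFA7* as the member with the largest difference between the libraries:
COX5B, chr2:97645812-97646111, plus strand: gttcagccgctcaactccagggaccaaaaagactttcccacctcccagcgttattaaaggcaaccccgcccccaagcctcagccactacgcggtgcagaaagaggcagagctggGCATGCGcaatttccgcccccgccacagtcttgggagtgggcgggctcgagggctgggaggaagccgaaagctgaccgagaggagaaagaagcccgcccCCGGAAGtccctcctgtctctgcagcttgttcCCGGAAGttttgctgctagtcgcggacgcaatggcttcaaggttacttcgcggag
SDHB, chr1:17053983-17054282, minus strand: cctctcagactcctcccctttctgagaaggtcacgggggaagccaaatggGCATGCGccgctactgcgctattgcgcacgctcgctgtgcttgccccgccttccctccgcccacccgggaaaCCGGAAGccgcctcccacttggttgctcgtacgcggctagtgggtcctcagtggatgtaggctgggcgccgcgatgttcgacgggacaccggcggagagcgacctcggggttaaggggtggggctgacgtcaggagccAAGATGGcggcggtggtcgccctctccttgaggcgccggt
NDUFA7, chr19:8321326-8321625, minus strand: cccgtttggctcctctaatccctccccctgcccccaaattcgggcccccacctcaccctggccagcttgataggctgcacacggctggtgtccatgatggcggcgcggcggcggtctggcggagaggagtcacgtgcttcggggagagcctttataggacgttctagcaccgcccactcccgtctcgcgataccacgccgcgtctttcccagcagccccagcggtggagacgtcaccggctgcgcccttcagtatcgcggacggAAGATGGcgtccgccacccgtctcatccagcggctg
In *COX5B* the NRF1 match begins 136 bases and the ETS matches 37 and 5 bases before the gene start. In *SDHB* the NRF1 match begins 200 and the ETS match 128 bases before the start, and the YY1 match begins at base 11 after it. *NDUFA7* has the YY1 match alone, from base 15.

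Across the 61 promoters, GCATGCG was found in 13 (21.3%), beside 4.13% of all 27305 RefSeq promoters and 6.68% of a set of 8246. This set holds the promoters whose gene, under the same symbol, passed the filter or is a respiratory chain member. CCGGAAG was found in 19 (31.1%), beside 10.7% and 20.3%, and AAGATGG in 16 (26.2%), beside 6.06% and 8.16%. At least 1 of the 3 was found in 36 of 61 (59.0%), beside 18.9% and 30.98%. The TCF/LEF core TCAAAG was found in 5 (8.20%), beside 13.1% and 8.17%, the E-box CACGTG in 7 (11.5%), beside 7.43% and 10.6%, and TATAAA in 6 (9.84%), beside 11.95% and 5.13%. The GC box GGGCGG was found in 37 (60.7%), beside 44.6% and 72.2%. A match is a description of the letters and not evidence of binding. Genes with and without a motif had similar ratios: the median log2 ratio was -0.08 in the 13 genes with and -0.09 in the 48 without GCATGCG, -0.10 in 19 and -0.08 in 42 for CCGGAAG, and -0.07 in 16 and -0.10 in 45 for AAGATGG.

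The ratios of the members moved with the GC content of their transcripts, as did those of all genes. Among members, the median log2 ratio was -0.02 in the 22 genes below 45% GC, -0.04 in the 23 from 45% to 50%, -0.11 in the 17 from 50% to 55%, -0.23 in the 11 from 55% to 60% and -0.15 in the 8 at 60% or more. Over all genes the medians in these classes were 0.04, -0.02, -0.08, -0.14 and -0.22. Across the 81 members Pearson's r between ratio and GC content was -0.39 and Spearman's rho -0.42, against -0.29 and -0.36 across 11554 genes. All points come from the same pair of libraries, and this is a description only. When the trend on GC content over all genes was subtracted, *NDUFA7* had a log2 ratio of -0.51, *NDUFB7* -0.23 and *ATP5D* -0.10, and 8 members were past 1.2-fold, 3 higher and 5 lower. The part of GC content in the ratios of single genes was not tested further.

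**Figure D4:**
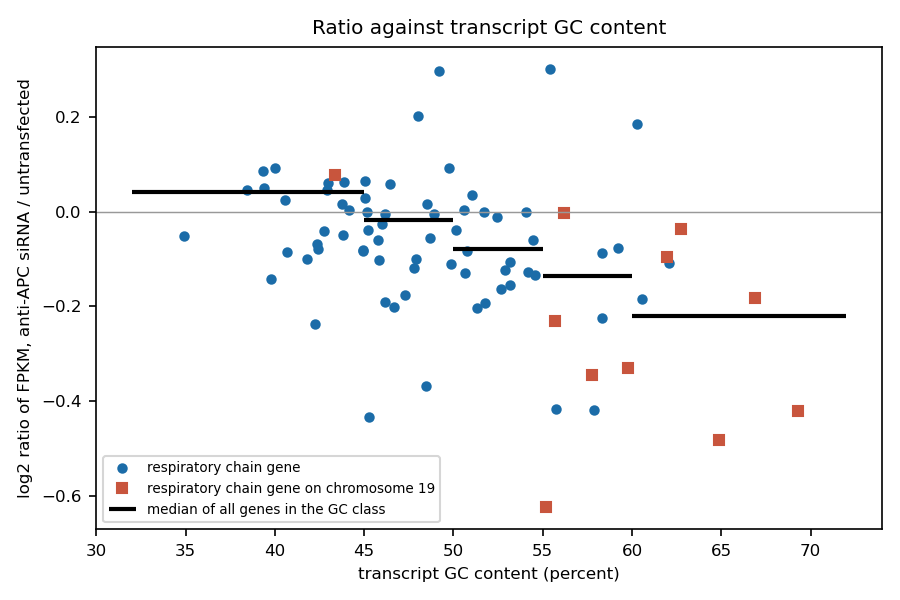
Log2 ratio of FPKM (y axis) against transcript GC content (x axis, percent) for the 81 members, with chromosome 19 members as red squares and bars at the median of all genes in each GC class. The bars descend from 0.04 below 45% GC to -0.22 at 60% or more. Of the 11 chromosome 19 members that passed, 10 lie below 0, beside 68.0% of all genes on that chromosome that passed.

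Genes that serve the chain without a name that the rule takes in were examined from lists of their functions. The subunit genes outside the rule were *CYC1*, cytochrome c1 of complex III, with 233 and 211 FPKM, *NDUFAB1*, the acyl carrier protein of complex I, with 229 and 227 FPKM, and *USMG5* (377 and 395 FPKM) and *C14orf2* (156 and 143 FPKM) of the ATP synthase. *CYCS*, cytochrome c itself, had 61.4 FPKM untransfected and 71.1 FPKM with anti-*APC* siRNA, a log2 ratio of 0.21. Of 47 assembly and control factors of complexes I to V, 14 were higher and 33 (70.2%) lower with a median log2 ratio of -0.03. Over all genes that passed, 58.6% were lower and the median was -0.05. Of the 47 factors, 1 differed by 1.5-fold, beside 9.17% of all genes. This was *SCO2*, a copper chaperone of complex IV, with 7.55 and 4.56 FPKM (log2 ratio -0.73, counting interval -1.09 to -0.36). Of 17 genes for electron carriers and ubiquinone synthesis that passed, none differed by 1.5-fold and the median was -0.16.

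Among 14 citrate cycle genes, which supply NADH and succinate, 12 (85.7%) were lower, with a median log2 ratio of -0.14. Over all genes that passed, 58.6% were lower, the median was -0.05 and 9.17% differed by 1.5-fold. The lower share was 70.6% of the 17 electron carrier and ubiquinone genes and 70.2% of the 47 assembly and control factors. Among these factors it ranged from 25% for complex II to 84.2% for complex IV. It was 62.5% of the 16 regulators and 59.2% of the mitochondrial ribosomal protein genes described next. *SUCLG1*, the alpha subunit of succinyl-CoA ligase, had 51.8 and 33.6 FPKM and a log2 ratio of -0.62, the only one of the 14 past 1.5-fold. Of 17 regulators of mitochondrial gene expression 16 passed and none differed by 1.5-fold. *TFAM*, which packages mitochondrial DNA, had 55.97 and 65.9 FPKM (log2 ratio 0.24), *NRF1* had 12.3 FPKM untransfected and a log2 ratio of -0.03, and *GABPA* had 11.7 and 12.5 FPKM. *YY1* had 53.2 and 43.8 FPKM, a log2 ratio of -0.28 (counting interval -0.34 to -0.22). In all, 10 of the 16 were lower and 6 higher. The 3 past 1.2-fold, *YY1*, the GABPA partner *GABPB1* (-0.33) and the mitochondrial rRNA methyltransferase *TFB1M* (-0.27), were all lower. The largest ratios among the 6 higher, just short of 1.2-fold, were those of *MTERF* (0.25) and *GABPB2* (0.25). The coactivator *PPARGC1A* was at 0 in both libraries. Of 76 mitochondrial ribosomal protein genes, 45 were lower and 31 higher with a median of -0.06, and 1 differed by 1.5-fold: *MRPL24* had 76.5 FPKM untransfected and 37.1 FPKM with anti-*APC* siRNA, a log2 ratio of -1.04. At 1.2-fold, where 32.9% of all genes differed, the shares were 41.2% of the 17 electron carrier and ubiquinone genes, 35.7% of the 14 citrate cycle genes, 23.4% of the 47 assembly and control factors, 18.8% of the 16 regulators and 11.8% of the 76 mitochondrial ribosomal protein genes.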

How the data were processed

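RNA from HCT-116 cells was sequenced as single-read TruSeq libraries, and per the labels the genome build was hg19 and the tools Cufflinks and Cuffdiff; versions, the aligner and the annotation are not given in the sources used here. The values the authors deposited are FPKM per gene with 1 column for untransfected cells and 1 for anti-*APC* siRNA. The authors' own comparison columns (natural log ratio, test statistic, p-value, q-value and a significance mark) were not used, apart from the status that marks failed estimates.

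Ratios were computed as log2 of FPKM without a pseudocount over genes above 0 in both libraries with a mean of at least 1 FPKM (12063 genes). Depth was estimated from genes whose pair of values stand in the ratio of small whole read numbers, after 200 bases, a number set by the fit, were subtracted from the median GENCODE 44 transcript length. Of 425 such genes, 95 gave the same depth within 2%, so depth and counting intervals (Poisson reads, 95%) are approximate. Symbols were matched to GENCODE on GRCh37 directly for 19469 rows and through RefSeq synonyms for 2258. All 89 members had a position.

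Members and lists were chosen with earlier results of these data known. Genes named were those past 1.5-fold, the 3 most abundant and the extremes of each complex, all SDH genes, paralogue groups and genes listed at 0. Genes past 1.2-fold were named as well, as were the shared-locus partners, regulators and carriers, chosen after their values were seen. Alternatives were pseudocounts of 1 and 0.1 FPKM, other filters, centring, rescaling, lowess trends (fraction 0.3) on expression, length and GC content, and restricted member lists. Depth and trend steps were tested on simulated data. Python 3.11.15 was used with statsmodels 0.14.6, scipy 1.17.1, pandas 2.3.3, numpy 2.4.6 and matplotlib 3.10.9.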

Additional observations from a re-analysis of the deposited data

How the results depend on the processing

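The median log2 ratio of the members stayed below 0 in all alternatives run, from -0.14 when both libraries were rescaled to the same total FPKM to -0.0047 when a trend on transcript length was subtracted. The count past 1.5-fold, 1 as reported, was 3 without a filter on low values, which adds *COX6B2* and *COX7A1*, and 0 at a limit of 2-fold and when the median of all genes or a trend on transcript length or GC content was subtracted. The share of members with a lower level, 71.6% as reported, was 87.7% after rescaling to the same total FPKM (all genes 68.4%). It was 55.6% after the median of all genes or a trend on GC content was subtracted (all genes 50.0% and 48.6%). After a trend on length was subtracted, the share was 50.6% (all genes 49.0%). Subtracting a median or a trend brings the centre of all genes near 0 by construction. A total without small RNA genes, an alternative chosen after the data were seen, gave 75.3%. The count past 1.2-fold, 2 higher and 9 lower as reported, was 0 higher and 13 lower after rescaling to the same total, where *NDUFS3* and *NDUFC1* had log2 ratios of 0.24, and 3 higher and 5 lower after the GC trend was subtracted. Alternatives against scrambled siRNA were not run. No paired analysis was possible because each condition has 1 library. Differences below the counting intervals were not detectable at this depth.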

Other observations

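Members on chromosome 19 stood lower than those elsewhere. The rule finds 13 there, more than on any other chromosome, and among the 11 that passed 10 were lower, with a median log2 ratio of -0.23, against -0.06 for the 70 members on other chromosomes. They include *NDUFA7*, *NDUFB7*, *NDUFA3*, *ATP5D* and *UQCR11*, which are 5 of the 9 members lower by at least 1.2-fold. The exception is *UQCRFS1*, with a log2 ratio of 0.08, which has the lowest transcript GC content of the 11 (43.4%). Over all genes that passed, the median was -0.12 for the 803 on chromosome 19 and -0.05 for the 10772 placed on other chromosomes. The share that was lower was 68.0% on chromosome 19 and 58.0% elsewhere. By at least 1.2-fold, 220 of the 803 and 2417 of the 10772 were lower. Position on chromosome 19 and GC content were not separated, and the part of either in these values was not tested. The chromosome was singled out after the values were seen.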
